A study of Mus musculus with 8 samples.

Results

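The core pluripotency factors followed here are the 10 genes Pou5f1, Sox2, Nanog, Sall4, Sall1, Utf1, Dppa2, Dppa4, Lin28a and Lin28b, of 46078 gene IDs counted. They were chosen by name as genes that embryonic stem cells (ESCs) and primordial germ cells (PGCs) both express. Their levels were followed through 4 groups of mouse cells with 2 RNA-sequencing libraries each. The tcESCs are an XY ESC line of C57BL/6 embryos carrying tesco-cfp, a cyan fluorescent reporter under the testis-specific enhancer core of Sox9, kept in N2B27 with 2i and LIF and without feeders or serum. The tc;Sf1ESCs are 1 clone of that line, selected with G418, that expresses Sf1 (Nr5a1) constitutively from a plasmid. Against tcESCs, the transgene, the clone and the selection cannot be told apart. The SCLCs, Sertoli cell-like cells, are CFP-positive cells sorted on day 12 of differentiation of tc;Sf1ESCs. The todPGCLCs are GFP-positive germ cell-like cells sorted on day 6 from testicular organoids, where epiblast-like cells of an XY;Prdm1-gfp ESC line had been cultured with differentiating tc;Sf1 cells. Since todPGCLCs come from another ESC line than the other 3 groups, line and cell type cannot be told apart in their comparisons.

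OCT4 (encoded by Pou5f1) and SOX2 bind DNA side by side at many enhancers of ESCs, and together with NANOG they activate their own genes and the genes of the wider pluripotency network. SALL4 and its relative SALL1 are zinc finger proteins that bind this network's proteins and the NuRD deacetylase complex, and UTF1, DPPA2 and DPPA4 are chromatin-associated proteins of pluripotent and germ cells. LIN28A and LIN28B are RNA-binding proteins that block the maturation of let-7 microRNAs. PGCs take up or keep much of this network, and somatic cells of the gonad are known to lose it.

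As OCT4 and SOX2 bind paired motifs, the 250 bases before each RefSeq transcription start were searched on both strands for an octamer core (ATGCAAA), a SOX core (CATTGT), and a composite of both with any 1 base between (CATTGTNATGCAAA), which contains both cores. A match is a description of the letters, not of binding. The RefSeq table (GRCm38.p6) held 11 windows of 7 members, and Sall4, Dppa2 and Dppa4 had no entry. The composite was found at Nanog, in its 2 overlapping windows, and in no other of 32851 windows (0.00609%). The octamer core alone was found at Sox2 (4.12% of all windows hold one), and a SOX core alone at Lin28a and at a start inside Pou5f1 (10.7% of all windows). No match was found at Sall1, Utf1 or Lin28b, nor at the outer start of Pou5f1. The windows of Nanog (chr6:122707239-122707488, plus strand) and Sox2 (chr3:34649745-34649994, plus strand) are shown because these were the members with the largest falls in SCLCs against tc;Sf1ESCs. The composite in capitals begins 75 bases before the Nanog start and is read on the minus strand, and the octamer core in capitals begins 99 bases before the Sox2 start.
Nanog: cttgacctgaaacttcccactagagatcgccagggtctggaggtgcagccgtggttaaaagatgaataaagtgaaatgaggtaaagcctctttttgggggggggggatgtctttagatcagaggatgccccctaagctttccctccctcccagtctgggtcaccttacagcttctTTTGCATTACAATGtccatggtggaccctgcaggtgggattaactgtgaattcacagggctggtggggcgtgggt
Sox2: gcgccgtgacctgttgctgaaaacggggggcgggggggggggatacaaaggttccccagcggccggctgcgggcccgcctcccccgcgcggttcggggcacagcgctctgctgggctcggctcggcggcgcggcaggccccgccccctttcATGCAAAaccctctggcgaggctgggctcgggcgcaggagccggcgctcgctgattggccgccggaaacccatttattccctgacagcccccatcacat

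The libraries held 25411033 to 30680191 counts on genes, at which 3 counts are 0.0978 to 0.118 CPM (counts of a gene per 1e6 counts on genes), and each member was above that in each library. The smallest count of a member was 37, for Lin28b in SCLC replicate 2. The 2 SCLC libraries differed most (chi-square per degree of freedom 27.6, against 1.41 to 8.94 in the other groups), and nothing in the labels says how far the replicates were separate cultures beyond calling them biological duplicates, so p-values measure the spread between these libraries. Marker lists were checked against the labels. In SCLCs, the summed level of 12 Sertoli cell markers was 486 and 481 CPM, against 15.1 to 19.5 CPM in both ESC groups and 121 and 148 CPM in todPGCLCs, where Dmrt1, which germ cells express too, gave 99.8 and 122 CPM. In todPGCLCs 5 of 10 tested Sertoli markers were called higher than in tcESCs (18.1% of all genes were), among them Wt1 at 12.1 and 11.03 CPM and Sox9 at 2.47 and 4.97 CPM. Of 9 Sertoli markers tested, 7 were called higher in SCLCs than in tc;Sf1ESCs (24.1% of all genes were called higher), namely Gata4, Sox9, Nr5a1, Inha, Wt1, Dmrt1 and Cldn11. Against tcESCs it was 6 of 9 (24.3% of all genes). Cldn11, at 0 counts in all ESC libraries, passed the filter (mean count above 10) only through SCLCs. Dhh, Fshr and Ptgds were not tested. A Sox9 enhancer drives the CFP of the sort, and Nr5a1 is on the plasmid. Wt1 (2.26 and 0.791 CPM) and Dmrt1 (35.7 and 13.3 CPM) were uneven between the SCLC libraries. These counts are thus no independent support for the label. Gata4, which primitive and visceral endoderm express too, gave 415 and 431 CPM of the SCLC sum, while Nr5a1 stood at 12.9 and 18.4 CPM, Inha at 7.92 and 9.28 CPM, Sox9 at 7.77 and 4.47 CPM and Fshr at 0 in both. Amh (0.377 and 0.756 CPM), Dhh and Sox8 did not exceed their highest ESC library. The 12 markers of primitive and visceral endoderm summed to 2773 CPM in SCLC replicate 1 and 4695 CPM in replicate 2, with none at 0, against 17.3 to 20.5 CPM in ESCs and 43.5 to 54.1 CPM in todPGCLCs. All 12 of them were called higher in SCLCs than in tc;Sf1ESCs, against the same 24.1% of all genes. Ttr, Apoa1 and Afp, at 0 to 6 counts in the ESC libraries, passed the filter only through SCLCs. For them a call of higher was fixed in advance. Fibroblast and mesenchyme markers (8 genes) summed to 1172 and 1071 CPM in SCLCs, against 5.79 to 7.20 CPM in ESCs and 49.9 and 47.1 CPM in todPGCLCs. Trophectoderm markers (8 genes) summed to 86.6 and 101 CPM in tcESCs, 23.1 and 21.4 CPM in tc;Sf1ESCs, 754 and 970 CPM in SCLCs, and 180 and 213 CPM in todPGCLCs, and 5 of 7 tested were called lower in tc;Sf1ESCs than in tcESCs (5.63% of all genes were). In todPGCLCs the 10 PGC markers summed to 1383 and 1426 CPM, against 631 to 897 CPM elsewhere, with Prdm1 at 179 and 194 CPM, Tfap2c at 185 and 221 CPM and Nanos3 at 2.18 and 4.10 CPM. Prdm1 drives the GFP of the sort, so its level was selected for. Against tcESCs 6 were called higher and 0 lower (18.1% and 11.2% of all genes). Against tc;Sf1ESCs 7 were higher and 1, Nanos3 (9.10 and 9.07 CPM there), lower (19.4% and 13.3% of all genes). Prdm14 (50.9 and 45.2 CPM) lay below tcESCs (61.7 CPM in both). Dazl (194 and 105 CPM) was not above tcESCs (171 and 192 CPM) in both libraries. The part of these other cell types' markers in the results on the members was not tested. In bulk libraries such as these, fewer cells of a type and less RNA per cell cannot be told apart.

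Levels of different genes were compared per length, as CPM per kilobase of merged exons (RPKM). In tcESCs, Nanog had the highest level among the members at 428 ± 12.3 RPKM (SD, n = 2), followed by Pou5f1 at 258 ± 18.2 RPKM and Sox2 at 251 ± 7.72 RPKM. These levels placed Nanog 40th, Pou5f1 90th and Sox2 93rd among 45229 genes with a length. Lin28b was lowest in every group, at 1.84 ± 0.0283 RPKM in tcESCs and 0.176 ± 0.0509 RPKM in SCLCs. The order differed in SCLCs, where Utf1 (55.5 ± 32.9 RPKM), Sall4 (50.3 ± 4.19 RPKM), Pou5f1 (43.8 ± 13.1 RPKM) and Lin28a (41.7 ± 9.54 RPKM) stood together and Nanog (20.2 ± 15.2 RPKM) came seventh. In todPGCLCs, Sox2 was highest at 397 ± 2.25 RPKM, ahead of Nanog at 288 ± 0.954 RPKM and Utf1 at 220 ± 16.7 RPKM. Between the 2 libraries of SCLCs, Sox2, Nanog, Utf1 and Dppa4 varied more than 2-fold, so their places in that order are loose.

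**Figure D1:**
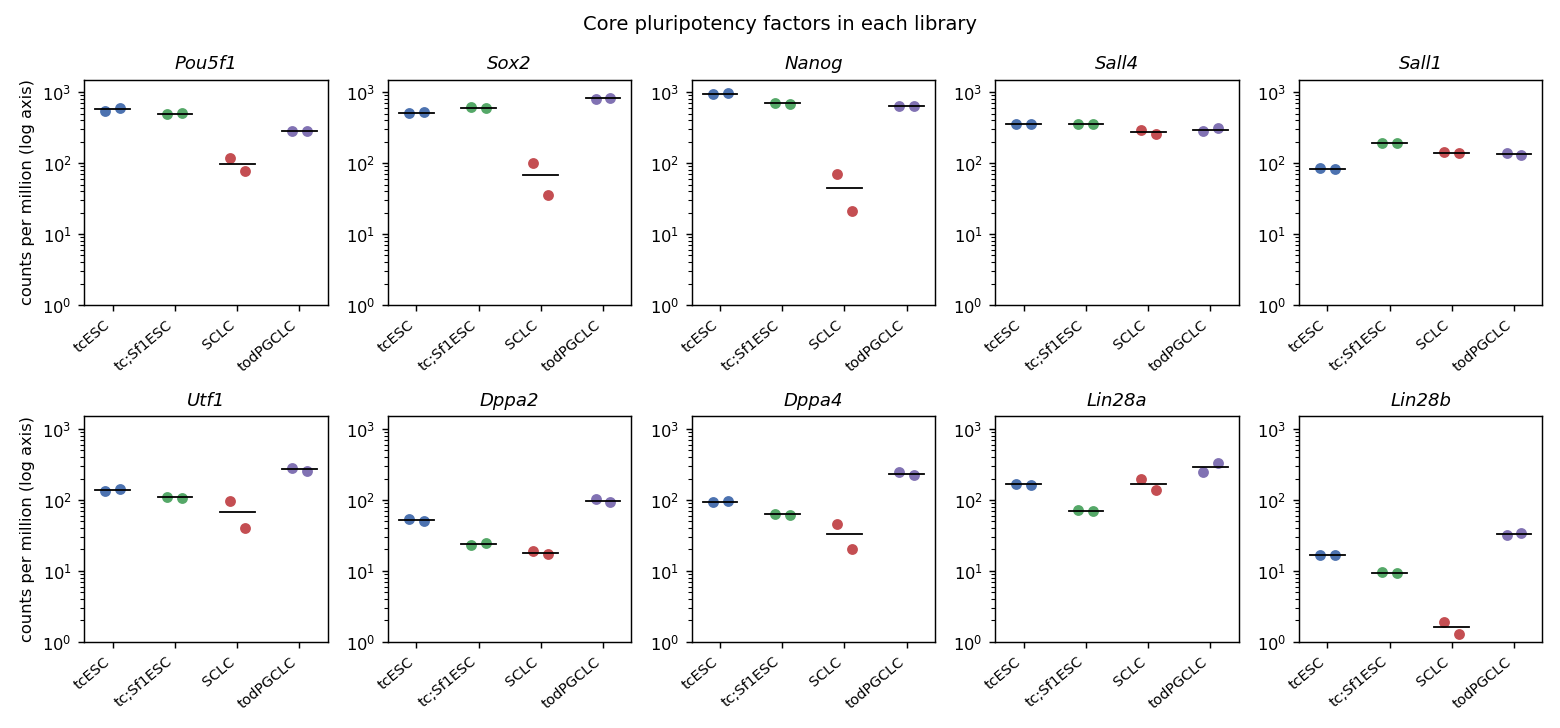
Level in CPM (log axis) of the 10 core pluripotency factors in each of the 8 libraries, with points for libraries and a line at each group's mean. Both SCLC libraries lie below all others for Pou5f1, Sox2, Nanog, Utf1, Dppa2, Dppa4 and Lin28b, Sall4 stayed between 262 and 362 CPM in all 8, and both todPGCLC libraries lie above all others for Sox2, Utf1, Dppa2, Dppa4, Lin28a and Lin28b.

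Tests were made by edgeR's quasi-likelihood method, with p-values adjusted after Benjamini and Hochberg over all genes of the fit. A gene was called with an adjusted p under 0.05 and a fold above 2. All 10 members entered both fits (mean count above 10). Between tc;Sf1ESCs and tcESCs, a comparison of the line with constitutive Sf1 and its parent, 3 members were called (11.7% of 16481 genes, 6.04% higher and 5.63% lower), with Sall1 higher and Dppa2 and Lin28a lower. Counts on Nr5a1 were low in both, at 52 and 30 (2.01 and 1.08 CPM) in tc;Sf1ESCs and 1 and 0 in tcESCs. The members' median log2 fold change was -0.39, against 0.00 over all genes. Between SCLCs and tc;Sf1ESCs, the step of differentiation itself, 5 members were called (42.2% of genes, 24.1% higher and 18.1% lower), with Lin28a higher and Pou5f1, Sox2, Nanog and Lin28b lower, and a median of -0.76 against 0.02. Against tcESCs, 6 members were called and each was lower in SCLCs (42.7% of genes, 24.3% higher and 18.3% lower), namely Pou5f1, Sox2, Nanog, Dppa2, Dppa4 and Lin28b, with a median of -1.47 against 0.05.

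For todPGCLCs the 8 libraries were fitted together over 16707 genes. Against tcESCs, 2 members were called (29.4% of genes, 18.1% higher and 11.2% lower), Dppa4 higher and Pou5f1 lower, and the members' median was 0.67 against 0.03 over all genes. Against tc;Sf1ESCs, 5 members were called and each was higher (32.7% of genes, 19.4% higher and 13.3% lower), namely Utf1, Dppa2, Dppa4, Lin28a and Lin28b, with a median of 0.77 against 0.01. Against SCLCs, 7 members were called and each was higher (38% of genes, 18.5% higher and 19.5% lower), that is all but Sall4, Sall1 and Lin28a, with a median of 2.08 against 0.01. These comparisons share libraries with one another. Where only library totals were used for scaling, the median of all genes moved by 0.13 on the log2 scale in the comparison of todPGCLCs with SCLCs, and the same 7 members were called. The stricter glmTreat test, which asks for a change beyond 2-fold, ended the calls of Dppa2 and Lin28a between the ESC groups, of Dppa4 in SCLCs against tcESCs, of Pou5f1 and Dppa4 in todPGCLCs against tcESCs, and of Utf1 in todPGCLCs against tc;Sf1ESCs.

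**Figure D2:**
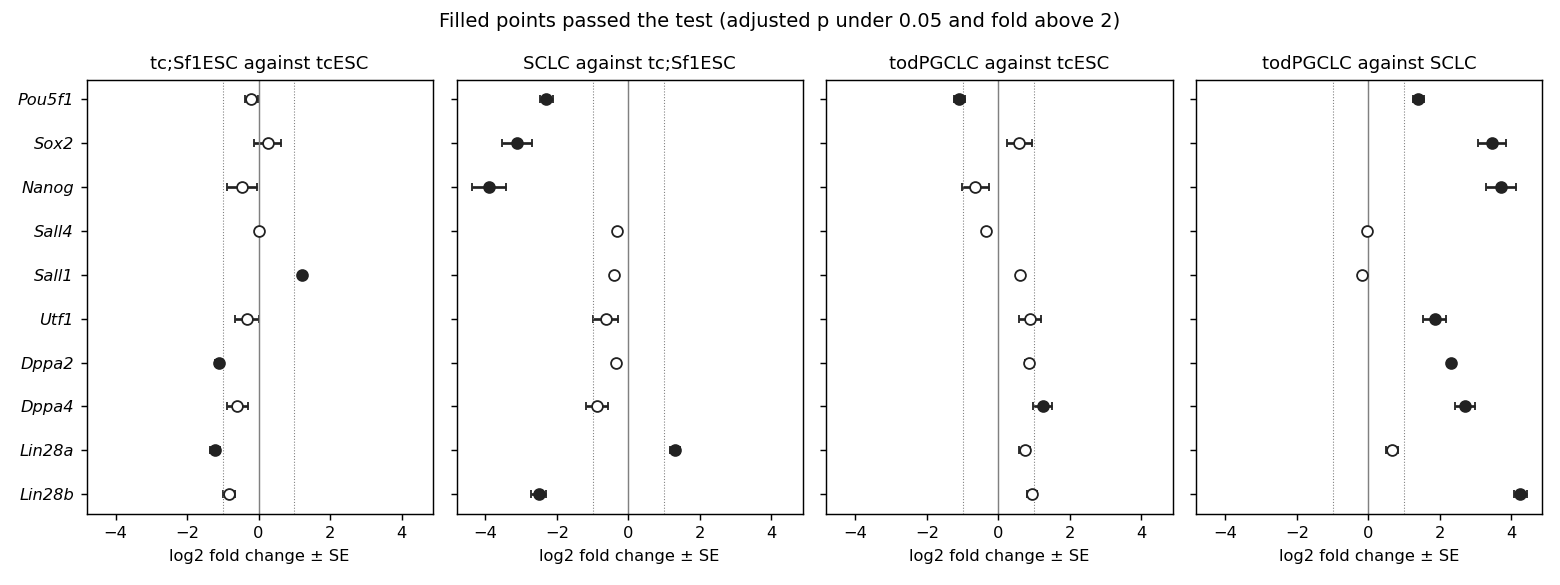
Log2 fold change with its SE (x axis) of each core pluripotency factor (y axis) in 4 comparisons, from the fit of 6 libraries for the first 2 panels and of 8 for the others. Filled points passed the test, and dotted lines mark a 2-fold change. Pou5f1, Sox2, Nanog and Lin28b lie left of the line in SCLCs against tc;Sf1ESCs and right of it in todPGCLCs against SCLCs, while Sall4 and Sall1 lie inside the lines in both.

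Pou5f1 (chr17:35506018-35510772, plus strand, GRCm38) encodes OCT4, the POU factor that pluripotent cells cannot do without. It had 551 and 609 CPM in tcESCs, 497 and 505 in tc;Sf1ESCs, 119 and 77.8 in SCLCs, and 285 and 286 in todPGCLCs. The 4 groups did not overlap, and the ESC groups were neighbours that the joint fit did not separate (log2 fold change -0.20 ± 0.17 (SE), adjusted p = 0.421). Pou5f1 was 4.91-fold lower in SCLCs than in tc;Sf1ESCs (log2 fold change -2.30 ± 0.18, adjusted p = 2.62e-05). In todPGCLCs it was 2.14-fold lower than in tcESCs (-1.10 ± 0.16, adjusted p = 0.000377) and 2.65-fold higher than in SCLCs (1.40 ± 0.16, adjusted p = 6.65e-05). A test against a 2-fold change itself did not call the todPGCLC difference from tcESCs (adjusted p = 0.425). An antisense transcript on the opposite strand, Gm19553, shares 317 bases of its exons.

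Sox2 (chr3:34650405-34652461, plus strand, a gene of 1 exon) encodes the HMG-box partner of OCT4. It had 505 and 527 CPM in tcESCs, 616 and 602 in tc;Sf1ESCs, 101 and 35.1 in SCLCs, and 813 and 820 in todPGCLCs. The todPGCLC libraries were the highest and the SCLC libraries the lowest, with no overlap between groups. The ratio of Sox2 to Pou5f1 per length was 3.11 and 3.14 in todPGCLCs, 1.36 and 1.30 in tc;Sf1ESCs, 1.0 and 0.946 in tcESCs, and 0.929 and 0.493 in SCLCs. Sox2 was 8.64-fold lower in SCLCs than in tc;Sf1ESCs (log2 fold change -3.11 ± 0.42, adjusted p = 0.000414) and 10.9-fold higher in todPGCLCs than in SCLCs (3.45 ± 0.39, adjusted p = 5.66e-05). The difference between todPGCLCs and tcESCs was under 2-fold and did not pass the test (0.59 ± 0.35, adjusted p = 0.174). Its SE carries the spread of the SCLC pair, although the todPGCLC and tcESC libraries did not overlap.

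Nanog (chr6:122707489-122714633, plus strand), a homeobox factor of ground-state ESCs and PGCs, had the widest range of these 3. It had 940 and 979 CPM in tcESCs, 701 and 689 in tc;Sf1ESCs, 69.4 and 21.3 in SCLCs, and 648 and 645 in todPGCLCs. Its SCLC level was 14.9-fold below tc;Sf1ESCs (log2 fold change -3.89 ± 0.48, adjusted p = 0.000234), and todPGCLCs were 13.1-fold above SCLCs (3.71 ± 0.43, adjusted p = 6.46e-05). The libraries of tcESCs, tc;Sf1ESCs and todPGCLCs did not overlap but were not separated by the joint fits (adjusted p of 0.451 for the ESC groups, 0.17 and 0.672 for todPGCLCs against tcESCs and tc;Sf1ESCs). The median log2 fold change of the genes of chromosome 6 between the ESC groups was -0.31, beside -0.45 ± 0.42 for Nanog, and between todPGCLCs and tcESCs it was -0.29, beside -0.64 ± 0.38. The SE of Nanog and Sox2 in those comparisons carries the spread of the SCLC pair. With only the 4 ESC libraries in the fit, the difference between the ESC groups had an adjusted p of 4.12e-12 for Nanog (-0.45), 1.16e-06 for Sox2 (0.25) and 0.000105 for Pou5f1 (-0.20), all under 2-fold. These p-values measure the spread between the libraries of each line, not between clones.

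The 2 SALL genes were within 2-fold of their tc;Sf1ESC level in SCLCs. Sall4 (chr2:168748332-168767943, minus strand), which ESCs need to stay undifferentiated, had 362 and 358 CPM in tcESCs, 357 and 358 in tc;Sf1ESCs, 295 and 262 in SCLCs, and 280.0 and 312 in todPGCLCs. No comparison called it, its log2 fold change was -0.31 ± 0.07 in SCLCs against tc;Sf1ESCs (adjusted p = 0.00541), and SCLCs and todPGCLCs overlapped. The sign of its difference between the ESC groups and between todPGCLCs and SCLCs turned with the scaling. Gm14261, on the opposite strand, shares 526 bases of its exons.

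Sall1 (chr8:89027235-89044162, minus strand), better known for kidney and limb development and also expressed in ESCs, had 84.8 and 83.0 CPM in tcESCs, 195 and 190 in tc;Sf1ESCs, 142 and 137 in SCLCs, and 141 and 128 in todPGCLCs. It was lowest in tcESCs and 2.32-fold higher in tc;Sf1ESCs (log2 fold change 1.21 ± 0.06, adjusted p = 5.21e-05). The median of all chromosome 8 genes in that comparison was 0.47. SCLCs lay between the ESC groups, 0.41 ± 0.06 below tc;Sf1ESCs on the log2 scale (adjusted p = 0.000481) and 0.80 ± 0.06 above tcESCs (adjusted p = 1.72e-05, chromosome 8 median 0.58), both under 2-fold. Per length, Sall4 exceeded Sall1 by 4.07 and 4.11 times in tcESCs and by 1.74 to 2.31 times in the other 6 libraries.

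Utf1 (chr7:139943789-139945112, plus strand), which encodes a chromatin-bound cofactor of ESCs and germ cells, had 131 and 144 CPM in tcESCs, 111 and 107 in tc;Sf1ESCs, 96.7 and 39.6 in SCLCs, and 284 and 255 in todPGCLCs. The todPGCLC libraries were the highest, 2.32-fold above tc;Sf1ESCs (log2 fold change 1.21 ± 0.31, adjusted p = 0.00757) and 3.62-fold above SCLCs (1.85 ± 0.32, adjusted p = 0.000725), and 1.86-fold above tcESCs (adjusted p = 0.0311), which is under the fold limit. In SCLCs its value against tc;Sf1ESCs was -0.64 ± 0.34 (adjusted p = 0.133). Without SCLC replicate 1 this was -1.40, past both limits, and the value against tcESCs moved from -0.96 to -1.72 and was called too.

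Dppa2 (chr16:48303908-48319723, plus strand) and Dppa4 (chr16:48283733-48294237, plus strand) are neighbouring genes whose proteins bind each other and, in ESCs, prime genes of the 2-cell embryo and bivalent promoters. Dppa2 had 53.1 and 50.5 CPM in tcESCs, 23.0 and 24.3 in tc;Sf1ESCs, 19.0 and 17.0 in SCLCs, and 103 and 92.8 in todPGCLCs. Dppa4 had 93.5 and 95.9 CPM in tcESCs, 63.6 and 61.0 in tc;Sf1ESCs, 45.1 and 20.3 in SCLCs, and 244 and 225 in todPGCLCs. Both genes thus had the same order of groups with no overlap, from todPGCLCs over tcESCs and tc;Sf1ESCs down to SCLCs.

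In tc;Sf1ESCs, Dppa2 was 2.17-fold lower than in tcESCs (log2 fold change -1.12 ± 0.09, adjusted p = 0.000306), and Dppa4 had -0.59 ± 0.30 (adjusted p = 0.172), an SE that carries the spread of the SCLC pair. With only the 4 ESC libraries in the fit, Dppa4 had the same -0.59 with an adjusted p of 3.61e-12, under 2-fold. That p-value, too, measures the spread between libraries, not between clones. The median of chromosome 16 genes in that comparison was -0.46, and in SCLCs against tcESCs it was -0.52, where Dppa2 was 2.75-fold lower (-1.46 ± 0.09, adjusted p = 8.29e-06) and Dppa4 2.78-fold lower (-1.47 ± 0.31, adjusted p = 0.00353). Between SCLCs and tc;Sf1ESCs neither was called, at -0.34 ± 0.09 (adjusted p = 0.0123) and -0.88 ± 0.30 (adjusted p = 0.0331), and without SCLC replicate 1 Dppa4 was called at -1.55. In todPGCLCs, Dppa4 was 2.36-fold above tcESCs (1.24 ± 0.26, adjusted p = 0.00334) and Dppa2 1.80-fold (0.85 ± 0.09, adjusted p = 5.6e-05, under the fold limit). Against SCLCs they were 6.57-fold and 4.96-fold higher (adjusted p = 3.55e-05 and 1.98e-07), with a chromosome 16 median of 0.53. Against tc;Sf1ESCs, Dppa4 was 3.55-fold and Dppa2 3.89-fold higher (adjusted p = 0.000372 and 7.15e-07), with a chromosome 16 median of 0.49.

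The 2 LIN28 genes parted in SCLCs. Lin28a (chr4:134003330-134018841, minus strand) had 170 and 163 CPM in tcESCs, 72.1 and 69.1 in tc;Sf1ESCs, 194 and 140 in SCLCs, and 248 and 333 in todPGCLCs. It was 2.34-fold lower in tc;Sf1ESCs than in tcESCs (log2 fold change -1.22 ± 0.14, adjusted p = 0.00104), and it was the member called higher in SCLCs than in tc;Sf1ESCs, by 2.45-fold (1.29 ± 0.14, adjusted p = 0.000134). Its SCLC libraries stood on either side of the tcESC ones (0.07 ± 0.14, adjusted p = 0.68), and the sign turned to -0.17 without SCLC replicate 1. In todPGCLCs it was 3.87-fold above tc;Sf1ESCs (1.95 ± 0.17, adjusted p = 1.63e-05) and 1.66-fold above tcESCs (adjusted p = 0.00404). Gm13061, on the opposite strand, shares 234 bases of its exons.

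Lin28b (chr10:45376620-45486395, minus strand) had 16.5 and 16.9 CPM in tcESCs, 9.57 and 9.25 in tc;Sf1ESCs, 1.92 and 1.27 in SCLCs, and 32.4 and 34.3 in todPGCLCs. No groups overlapped, and each neighbouring pair in that order differed, the ESC groups by -0.81 ± 0.17 (adjusted p = 0.0104) and todPGCLCs from tcESCs by 0.93 ± 0.14 (adjusted p = 0.000453), both under 2-fold. Lin28b was 5.70-fold lower in SCLCs than in tc;Sf1ESCs (-2.51 ± 0.20, adjusted p = 2.71e-05) and 19.1-fold higher in todPGCLCs than in SCLCs (4.26 ± 0.17, adjusted p = 2.1e-07). Per length, Lin28a exceeded Lin28b 228-fold and 249-fold in the SCLC libraries, and 16.9-fold to 23.4-fold in the other 6.

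The 2 SCLC libraries did not hold the members equally. Replicate 1 was above replicate 2 for all 10 members, with a median log2 difference of 0.61, against 0.00 over 16217 genes. As a share of the tc;Sf1ESC mean, Nanog stood at 9.97% in replicate 1 and 3.06% in replicate 2, Sox2 at 16.6% and 5.76%, and Pou5f1 at 23.8% and 15.5%. Utf1 (88.4% and 36.2%) and Dppa4 (72.4% and 32.7%) differed more than 2-fold too, whereas Sall4 (82.4% and 73.2%), Sall1 (74.0% and 71.3%) and Dppa2 (80.4% and 71.9%) differed by at most 1.13 times. Other lists differed between the same libraries. Naive network genes (14 of 18) and PGC markers (9 of 10) were mostly higher in replicate 1, with medians of 0.55 and 0.77, as were 7 of 8 fibroblast markers with a median of 1.25. Of the endoderm markers 2 of 12 were higher in replicate 1, with a median of -0.70, and of the trophectoderm markers 0 of 7, with a median of -0.55. The part of these differences in the members' values was not tested. Without SCLC replicate 1 the change against tc;Sf1ESCs was -4.96 for Nanog and -4.05 for Sox2, and without replicate 2 it was -3.28 and -2.54, so both were called in each case. Against tcESCs, Dppa4 had -2.14 without replicate 1 and -1.01 without replicate 2. In todPGCLCs against SCLCs, leaving out SCLC replicate 1 gave 4.78 for Nanog, 4.40 for Sox2, 3.38 for Dppa4 and 2.62 for Utf1, and leaving out replicate 2 gave 3.08, 2.87, 2.24 and 1.34, with the same 7 members called.

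**Figure D3:**
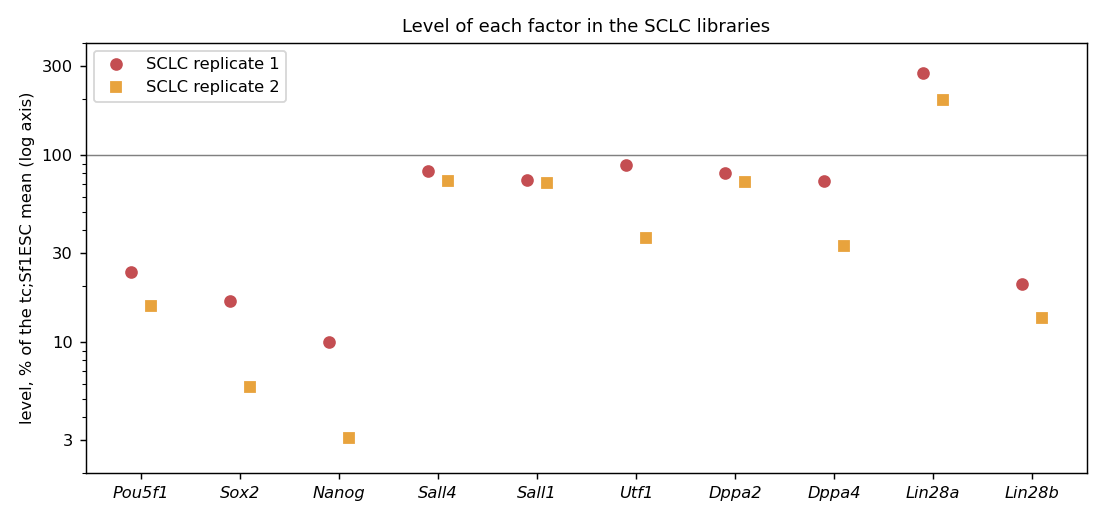
Level of each core pluripotency factor in SCLC replicate 1 (circles) and replicate 2 (squares) as a percentage of the tc;Sf1ESC mean (log axis), from CPM. Replicate 1 lies above replicate 2 for all 10 genes, from 1.04 times for Sall1 to 3.26 times for Nanog, and Lin28a alone lies above 100%.

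The members sit in a wider network, which was followed by 6 lists of genes. The naive network list holds 18 factors of ground-state ESCs. Between the ESC groups 1 of the 18 was called, Tcl1, a coactivator of the AKT kinase (higher, log2 fold change 1.72 ± 0.28, adjusted p = 0.00391), with a list median of -0.08 (11.7% of all genes were called). Between SCLCs and tc;Sf1ESCs 12 were called, each lower, with a median of -2.35 against 0.02 over all genes, of which 42.2% were called and 18.1% were lower. The largest falls were those of Fgf4, a growth factor gene that OCT4 and SOX2 activate (-5.15 ± 0.46, adjusted p = 4.61e-05), and Nr0b1, the nuclear receptor DAX1 (-4.60 ± 0.12, adjusted p = 2.22e-07). Fgf4 had 12.8 and 3.40 CPM in SCLC replicates 1 and 2, and Nr0b1 3.40 and 2.72 CPM, so the order of these falls is loose. In todPGCLCs against tcESCs 7 were lower and 2 higher with a median of -0.76 (29.4% of all genes called, 11.2% lower), and Tbx3 (-3.38 ± 0.13, adjusted p = 3.46e-07) and Klf4 (-3.00 ± 0.08, adjusted p = 6.2e-08) fell most while Dppa3 (Stella), a protein of PGCs and oocytes, rose (2.66 ± 0.41, adjusted p = 0.000558).

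Genes of formative and primed epiblast (11 genes) were mostly lower in SCLCs, with 7 lower and 2 higher than in tc;Sf1ESCs (18.1% and 24.1% of all genes) and a median of -1.53. Foxd3 fell by 5.85 ± 0.17 on the log2 scale (adjusted p = 3.43e-07), and Pou3f1 (2.42 ± 0.19, adjusted p = 2.3e-05) and Dnmt3a, a DNA methyltransferase (1.91 ± 0.15, adjusted p = 2.6e-05), rose. In todPGCLCs 6 were higher and 1 lower than in tcESCs (18.1% and 11.2% of all genes), with a median of 1.23. The largest rises were Lef1, a Wnt effector (4.93 ± 0.28, adjusted p = 2.3e-06), and Otx2, a homeobox factor of the epiblast (4.57 ± 0.17, adjusted p = 3.57e-07), which had 78.4 and 65.3 CPM in todPGCLCs against 2.77 to 2.99 CPM in tcESCs. Between the ESC groups Lef1 was higher (4.33 ± 0.30, adjusted p = 0.000163) and Sox3 and Pou3f1 lower (-1.98 ± 0.20 and -1.13 ± 0.19, adjusted p = 0.000608 and 0.00452) in tc;Sf1ESCs.

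Of 16 genes of the LIN28 and let-7 axis, 2 rose and 2 fell in SCLCs against tc;Sf1ESCs, with a median of -0.54, where 42.2% of all genes were called. Arid3a (1.55 ± 0.13, adjusted p = 3.83e-05) and Prtg (1.15 ± 0.20, adjusted p = 0.00137) rose. Hmga1 and Hmga2, chromatin proteins whose mRNAs let-7 targets, fell (-2.40 ± 0.30, adjusted p = 0.000244, and -2.09 ± 0.07, adjusted p = 7.42e-07). Hmga2 had risen in tc;Sf1ESCs over tcESCs (2.81 ± 0.08, adjusted p = 1.29e-05), from 14.1 and 15.1 to 101 CPM in both libraries, and its SCLC libraries had 22.4 and 23.4 CPM. The genes Dicer1, Drosha, Dgcr8, Dis3l2, Tut4 and Tut7, whose products process or destroy let-7 precursors, stayed under the fold limit in this comparison. Of these, Tut4 (0.85 ± 0.06, adjusted p = 1.99e-05), Tut7 (0.92 ± 0.08, adjusted p = 3.81e-05) and Dis3l2 (0.46 ± 0.09, adjusted p = 0.00239) were higher, Drosha (-0.65 ± 0.07, adjusted p = 0.000167) and Dicer1 (-0.49 ± 0.07, adjusted p = 0.000566) were lower, and Dgcr8 had 0.01 ± 0.09 (adjusted p = 0.947). In todPGCLCs against tcESCs 2 rose and 1 fell with a median of 0.01 (29.4% of all genes were called), led by Prtg (3.27 ± 0.21, adjusted p = 3.79e-06) and Igf2bp2 (1.52 ± 0.07, adjusted p = 9.08e-07). Mature microRNAs are not measured by these poly-A libraries.

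Of 20 genes for complexes that OCT4, SOX2, NANOG and SALL4 bind, 8 fell and 1 rose in SCLCs against tc;Sf1ESCs, with a median of -0.70, in a comparison that called 42.2% of all genes. Tet1, a 5-methylcytosine dioxygenase (-2.69 ± 0.22, adjusted p = 2.97e-05), and Wdr5, a subunit of H3K4 methyltransferases (-1.97 ± 0.08, adjusted p = 1.23e-06), fell most, and Rbbp7, a histone-binding subunit, rose (1.42 ± 0.06, adjusted p = 1.52e-06). Of the paralogs of the SALL, SOXB1 and POU families, 12 of 14 could be tested, and 6 fell and 2 rose in SCLCs against tc;Sf1ESCs (18.1% and 24.1% of all genes). Sall3 fell by 5.06 ± 0.19 on the log2 scale (adjusted p = 9.2e-07) and Sall2 rose (1.14 ± 0.10, adjusted p = 4.8e-05), beside the small changes of Sall4 and Sall1. Pou4f2 was called lower, but it had 0 and 3 counts in the SCLC libraries, so no fold is given.

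Genes of the 2-cell embryo that lie downstream of DPPA2 and DPPA4 were low, and the highest level of the 13 found in the files was 4.02 CPM. Of 9 tested, 7 were higher in SCLCs than in tc;Sf1ESCs (24.1% of all genes), with a median of 1.47, a comparison in which Dppa2 and Dppa4 were not called. Zscan4d went from 1.35 and 1.16 CPM to 3.81 and 4.02 CPM (log2 fold change 1.69 ± 0.27, adjusted p = 0.00087). These genes belong to multigene families whose reads the authors' counting could split or set aside, so their values are uncertain. In todPGCLCs, 3 of 8 tested were called against tcESCs, each lower, with a median of -1.03 (29.4% of all genes were called), and against tc;Sf1ESCs, where Dppa2 and Dppa4 were both called higher, 1 was higher and 2 lower with a median of -0.52 (32.7% of all genes).

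**Figure D4:**
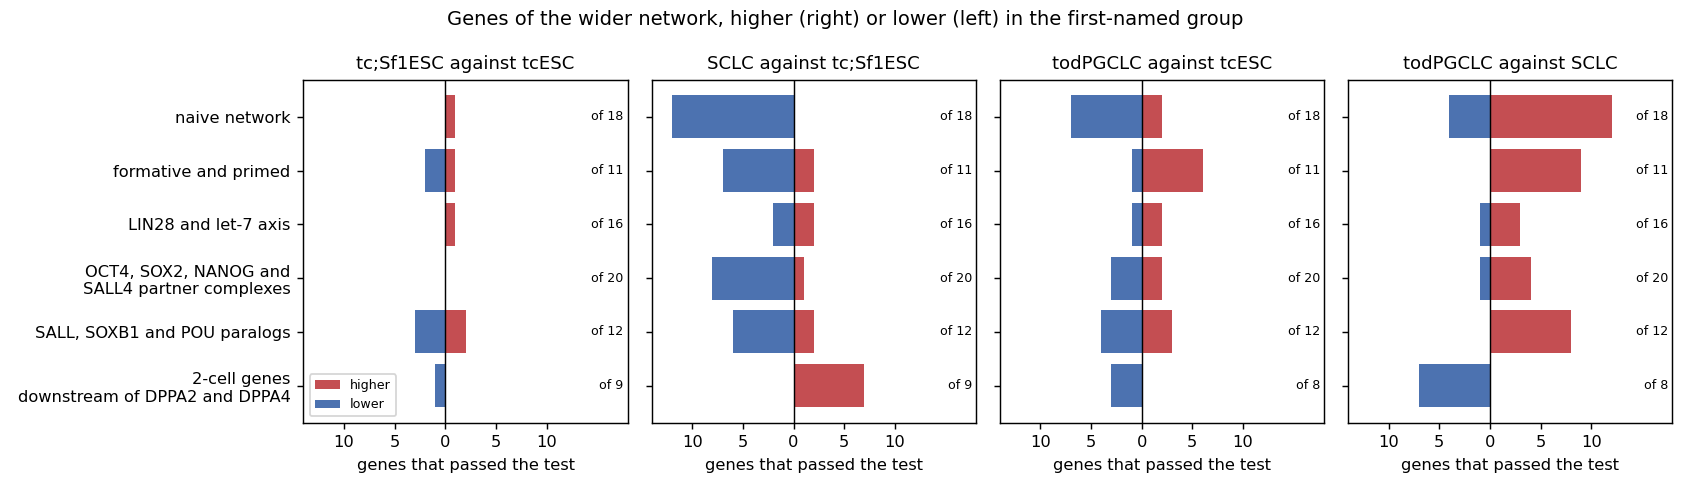
Number of genes that passed the test (x axis) in 6 lists of the wider pluripotency network (y axis) in 4 comparisons, higher to the right and lower to the left of 0, with the number tested at the right edge. In SCLCs against tc;Sf1ESCs 12 of 18 naive network genes were lower and 7 of 9 2-cell genes were higher.

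The genes whose pattern over the 8 libraries lay closest to a member were found among 14292 genes of at least 1 CPM, by distance between centred log2 CPM, and are given as a description. Nearest to Pou5f1 were Amt, Zfp979 and Asns, to Sox2 Tcea3, Zfp981 and Etv5, and to Nanog Gpa33, Morc1 and Sept1 (Pearson r of 0.991 to 0.998 over 8 libraries). Sall4 lay nearest to Sf3b2, Rtcb and Msantd4, and Sall1 to Snhg8, Aldh5a1 and Fnta (r of 0.956 to 0.971). Utf1 was followed by Gm19705, Nectin3 and Srcin1, Dppa2 by Gas7, Gldc and Srl, and Dppa4 by Col18a1, Sfrp2 and Map7d2. For Lin28b they were St8sia1, Cdhr1 and N4bp3. Among the members themselves Utf1 and Dppa4 were the closest pair (r = 0.989). All 8 points of such a pattern come from 4 groups and share libraries and depth, so each r mostly restates the 4 group levels.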

How the data were processed

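Poly-A RNA was sequenced strand-specifically as 50 bp paired ends. Per the labels and the submitters' processing notes, the authors trimmed reads with Trim Galore, aligned them to GRCm38 with STAR 2.4.0, and deposited raw counts of reads per gene, made with HTSeq. The counting settings and annotation release are not given in the sources used here, and 20.5% to 27.5% of reads were set aside as not unique. Of 46078 IDs, 45229 were named with GENCODE M21. CPM divides counts by the library's total on genes.

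Counts were tested with edgeR 4.0.16 (limma 3.58.1, R 4.3.3) after TMM normalization on genes with a mean count above 10, in a fit of 6 libraries, or of 8 for todPGCLCs, with the fold and p limits of the study's methods. SE is the log2 fold change divided by the root of F. The limit of 3 counts covers counting error only, as PCR duplicates may be among the reads.

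The members, lists and comparisons were chosen with earlier results of these data known. From each list the 2 largest rises and falls among called genes of at least 1 CPM could be named, and a few of these and other genes chosen after their values were seen are given. Nearest patterns used a prior count of 2. Those of Lin28a are not reported here. Results were recomputed with DESeq2 1.42.0, with glmTreat against a 2-fold change, with RLE size factors or library totals as scaling, with filterByExpr or no filter beyond 1 count, on 4 or 8 libraries, with a replicate block, and without each library.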

Additional observations from a re-analysis of the deposited data

How the results depend on the processing

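Of the members' log2 fold changes under the alternatives, 729 kept their direction and call, 7 gained a call, 6 lost one and 8 turned sign. The sign turned for Sall4 between the ESC groups (0.00266; -0.00873 with RLE size factors, -0.0102 with library totals, -0.00872 with DESeq2, -0.0101 to 0.0138 without 1 library) and between todPGCLCs and SCLCs (-0.04; 0.0882 with library totals, -0.13 to 0.0362 without 1 library), and for Lin28a in SCLCs against tcESCs (-0.17 to 0.28 without 1 library). Where a library was left out, the lone one was assumed to vary like the other groups. A test against a 2-fold change called 1 member and 594 genes between the ESC groups and 0 members and 3078 genes between todPGCLCs and tcESCs. By an unadjusted p under 0.05 in edgeR 8 members differed in the latter, as did 65.9% of all genes, and DESeq2 called 2 members. Leaving out 1 library gave 1119 to 1240 called genes between the ESC groups. Utf1 in SCLCs against tcESCs was called with library totals (-1.02), with the 4 libraries compared (-1.01) and with the replicate block (-1.04), and Lin28b in todPGCLCs against tcESCs with library totals (1.001). Deviations from the group means were not shared by same-numbered libraries (correlation across genes -0.02 to 0.06), so the numbers were not taken as pairs, and the replicate block changed no other call of a member. With it 1916 genes were called between the ESC groups. The lower level of Lin28b in SCLCs rests on 51 and 37 counts.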
